A study of Mus musculus with 6 samples.

Results

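The genes described here were 10 members of the mitochondrial redox system in the mouse heart: Nnt, Sod1, Sod2, Cat, Gpx1, Gsr, Txn2, Txnrd2, Prdx3 and Prdx5. They were chosen by name, as the rows of the deposited expression table that carry these symbols. The rule uses no measured value, but the genes were proposed with earlier results of these data known. The table had 11 such rows of 54532 in all, because Nnt had 2 rows with different gene identifiers. RNA with a poly(A) tail was sequenced from the hearts of 3 Mc4r KO mice and 3 WT mice of 12 weeks, with 1 library per mouse. The study's methods describe homozygous KO and WT littermates from heterozygous parents and lines kept on a background written there as C57B/6/N. The labels call the samples muscle in the title and heart as the source. The study's discussion names the left ventricle as the tissue sequenced, and male mice for the measurements of heart function. Expression is given as FPKM, the fragments scaled to the length of the gene and to a factor for the library, as deposited by the authors. The deposited values were already levelled between libraries. Their median ratio to each gene's geometric mean was the same, 1.005829, in every library.

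The respiratory chain leaks superoxide, which superoxide dismutases turn into hydrogen peroxide, Sod2 in the matrix and Sod1 in the cytosol and the intermembrane space. Peroxiredoxins, glutathione peroxidases and catalase remove the peroxide, and thioredoxin and glutathione are returned to their reduced form with electrons from NADPH. Nicotinamide nucleotide transhydrogenase, the product of Nnt, sits in the inner mitochondrial membrane and uses the proton gradient to make NADPH in the matrix. C57BL/6J mice carry a deletion of several consecutive Nnt exons and lack the functional enzyme, whereas C57BL/6N mice keep the whole gene, so Nnt is often read as a check of the substrain. The reference assembly GRCm38 is that of C57BL/6J.

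Counts on genes, recovered from the FPKM and called reads here, ranged from 14691076 to 16047003 per library. The study aligned paired-end reads, so a count may stand for a pair of reads. A level of 3 reads on a gene of 1 kb, taken as the floor for counting error, stood for an FPKM of 0.176 to 0.213. The targeted gene Mc4r, a melanocortin receptor of the hypothalamus, was read only in WT replicate 3 (2 reads, with 0 elsewhere), which is under the floor, so it could not check the labels at this depth. Among libraries, WT replicate 3 stood apart. Its atrial marker sum (Myl7, Myl4, Sln, Nppa, Bmp10; 5 of 5 with a mean FPKM of at least 0.1) was 797.5 FPKM against 28.7 and 95.2 in the other WT libraries and 6.29 to 136.5 in Mc4r KO, and across 11297 genes it correlated more closely with KO replicate 1 (0.9624) than with WT replicates 1 and 2 (0.946 and 0.9518). Genes of the mitochondrial chromosome took 59.3%, 57.4% and 47.1% of all FPKM in WT, against 43.6%, 46.6% and 43.0% in Mc4r KO. Selected differences of the 10 genes and counts over the gene lists are therefore also given without WT replicate 3 or after scaling on genes outside the mitochondrial chromosome. A value that is not restated may also have changed.

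Ventricular cardiomyocyte markers (Myh6, Myl2, Myl3, Tnnt2, Tnni3, Actc1, Ryr2, Ttn) were detected for 8 of 8 genes and summed to between 13827 and 14761 FPKM in WT and to between 16820 and 18382 in Mc4r KO. Actc1 alone averaged 5178 FPKM in WT and 7539 in Mc4r KO, so this sum leans on its abundant genes. Of 8 skeletal muscle markers, 4 had a mean FPKM of at least 0.1, Myh4 was at 0 and the sums lay between 1.11 and 2.29 FPKM, so the tissue was heart by its markers. Erythrocyte markers (7 of 7) summed to 4498, 860 and 6345 FPKM in WT and to 620 to 1652 in Mc4r KO. Fibroblast markers (6 of 6) summed to 196 to 204 FPKM in WT and to 142 to 164 in Mc4r KO, while the sums of endothelial (6 of 6; 154 to 189 and 166 to 194) and macrophage markers (6 of 6; 172 to 270 and 213 to 273) overlapped between the groups. The fibroblast sum leans on Dcn (means of 119.3 FPKM in WT and 82.4 in Mc4r KO). Col1a1 had the higher mean in Mc4r KO (15.4 and 20.2), and the groups overlapped for Col1a1 and Col3a1. Of 7 adipocyte markers 1 reached a mean FPKM of 0.1, and Lep, Retn and Ucp1 were at 0. In whole tissue, fewer cells of a type and less RNA per cell cannot be told apart.

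Nnt was almost unread in the table. The first model (ENSMUSG00000025453; GRCm38 chr13:119335448-119408997, minus strand, 7037 exonic bases) had read counts of 18, 14 and 32 for WT and of 20, 6 and 31 for Mc4r KO. The second model (ENSMUSG00000116207; chr13:119335528-119408952, minus strand, 3339 exonic bases) was at 0 in each of the 6 libraries, where a count of 0 allows up to 3 reads. By FPKM the first model stood at 0.181, 0.139 and 0.267 in WT and at 0.183, 0.0561 and 0.275 in Mc4r KO, and the groups overlapped.

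These 2 rows cover the same gene. All 3339 exonic bases of the second model (100%) lie inside exons of the first on the same strand, so the second model has 0 bases of its own. Of the first model, 3339 bases (47.4%) are shared and 3698 are its own. The own bases are in merged exons 1 (45 bases), 4 (1139), 5 (1506), 14 (928) and 17 (80), counted from the 5′ end, which are transcript ends and stretches of retained intron. The protein-coding transcript Nnt-202 shares 3339 of its 3464 bases with the second model, Nnt-201 shares 2997 of 3122 and Nnt-203 shares 2225 of 3198. The retained-intron transcripts Nnt-204 and Nnt-205 share 789 of 2340 and 701 of 1885 bases.

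**Figure D1:**
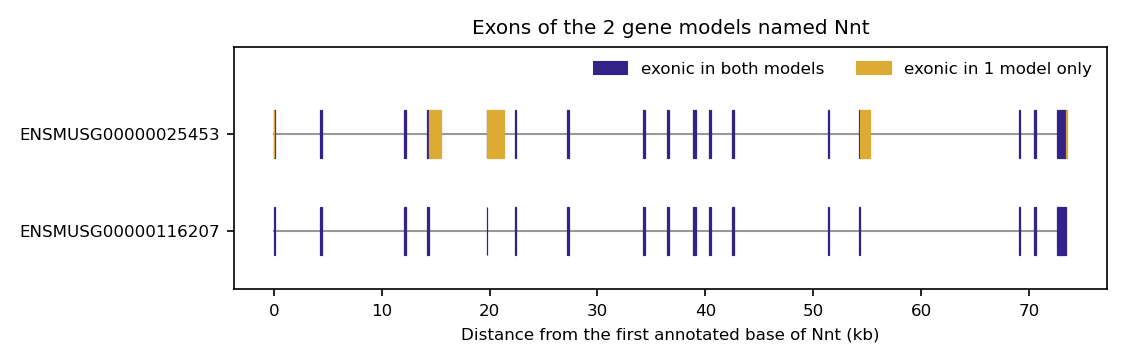
The 2 Nnt gene models of the annotation GENCODE M21, drawn against distance from the first start site in kb, with exonic bases shared by both models and bases of 1 model set apart by colour. All 3339 exonic bases of the second model are shared, and the 3698 own bases of the first model sit mainly in 3 wide exons.

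The place of the missing exons can be seen in the annotation itself. The sixth exon of Nnt-206 (chr13:119386579-119386667) is followed by the seventh (chr13:119381676-119381863) after a gap of 4715 bases, and in C57BL/6J the lost exons belong between them. The joined messenger sequence is shown because a read across it would carry the C57BL/6J form of the transcript, while C57BL/6N transcripts have further exons at that point. It is present in 4 of the 6 annotated Nnt transcripts (Nnt-201, Nnt-202, Nnt-203 and Nnt-206), which lie in both gene models. The letters are from the GRCm38 reference, minus strand, 5′ to 3′, with the bases of the seventh exon in capitals (chr13:119386579-119386608 joined to chr13:119381834-119381863).
Nnt exon 6 to exon 7: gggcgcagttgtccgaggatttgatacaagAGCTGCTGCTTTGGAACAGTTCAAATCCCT
Gene-level FPKM keep no record of reads across this junction, and both of its exons lie entirely in shared bases.

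Protein-coding genes in the same position as the second Nnt model were nearly all at 0. Of 117 protein-coding genes whose exonic bases were all shared with genes on the same strand, 111 (94.9%) had 0 reads in all 6 libraries, and of 35 genes fully shared with genes on the opposite strand 34 (97.1%) did. Among 15485 protein-coding genes with no shared exonic base the share at 0 was 29.4% (4560 genes). With 75% to under 100% of the bases shared the share at 0 was 42.2% on the same strand (46 of 109) and 51.1% on the opposite strand (24 of 47). With less than 50% shared it was below that of genes with none shared, at 15.1% and 16.3% on the same strand and 6.62% and 13.2% on the opposite strand (up to 25% and 25 to 50% of the bases). The first Nnt model, with 47.4% shared, belongs to the class with 16.3% at 0 (21 of 129 genes). Genes wholly covered by another gene were thus mostly at 0 on either strand.

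**Figure D2:**
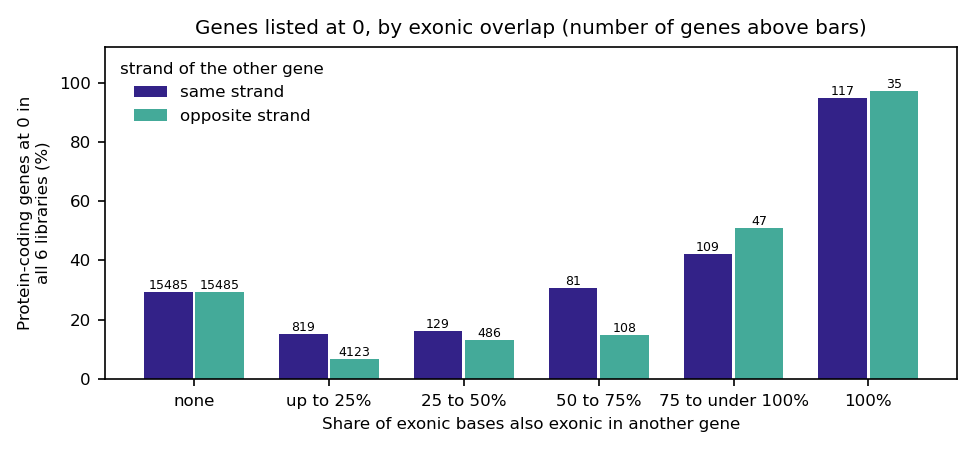
Percentage of protein-coding genes with 0 reads in all 6 libraries (vertical axis, from 0) by the share of their exonic bases that other genes also cover, for genes on the same and on the opposite strand; the genes with none shared are the same in both series. The share at 0 is 29.4% with none shared and 94.9% and 97.1% when all bases are shared.

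The table gives no position of the reads within the gene. If all reads of the first model lay on its own bases, which are retained introns and transcript ends, they would come to 4.87, 3.79 and 8.65 reads per kb in WT and 5.41, 1.62 and 8.38 in Mc4r KO. The level of the spliced Nnt messenger could not be told from these 2 rows, nor could the substrain form of the gene in either group. As fitted on log2(FPKM + 0.1), Nnt differed by -0.19 between Mc4r KO and WT (SE 0.45, 95% interval -1.25 to 0.87; limma adjusted p = 0.845, n = 3 per group), with means of 0.171 ± 0.110 and 0.196 ± 0.0654 FPKM (SD). KO replicate 2, with its 6 reads, set the sign: without it the difference was 0.16.

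Other genes described as differing between C57BL/6J and C57BL/6N were examined beside Nnt. Wdfy1, which encodes an endosomal protein (ENSMUSG00000073643; chr1:79702262-79776143), rose in Mc4r KO hearts. It had 94, 111 and 116 reads in WT and 438, 440 and 438 in Mc4r KO, or 1.09 ± 0.0887 and 4.34 ± 0.128 FPKM (SD, n = 3 each), and the groups were far apart. The log2 fold change on the scale of log2(FPKM + 0.1) was 1.9 (SE 0.12; limma adjusted p = 0.00228), and it passed the test under 20 of 21 alternative settings, the exception being the mitochondrial share as a covariate (adjusted p = 0.0791). Ide, the insulin-degrading enzyme, had FPKM of 18.0, 16.7 and 13.9 in WT and 11.3, 8.34 and 11 in Mc4r KO. The groups did not overlap, but the log2 difference of -0.66 (SE 0.15) did not pass the test (limma adjusted p = 0.0919). Without WT replicate 3 it did, at -0.77 (limma adjusted p = 0.0309). In that fit 4.04% of all genes were called, and Ide was called under 1 of 21 alternatives in all. The deposited length of Ide, 5823 bases, differs from the 7506 of the annotation used here. Entpd4, a Golgi nucleotidase, was read only in WT replicate 1 (2 reads), shares 30.4% of its exonic bases with genes on the opposite strand and was not tested. Of this list of 4 genes 3 were tested and 1 was called, a call being an adjusted p under 0.05 with an absolute log2 fold change above 0.75, against 0.46% of the 18035 genes tested. Which substrain allele a mouse carried at any of these genes was not measured.

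The other 9 genes were all expressed, at between 5.06 and 166.9 FPKM. Prdx3, the peroxiredoxin of the matrix and the main consumer of peroxide there, was the most abundant by FPKM (ENSMUSG00000024997; chr19:60864051-60874556). Its levels were 160.6, 166.9 and 149.6 FPKM in WT and 165.8, 165.6 and 160.6 in Mc4r KO. The libraries of the groups interleaved, and the log2 difference was 0.05 (95% interval -0.15 to 0.24).

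Prdx5, a peroxiredoxin of mitochondria, peroxisomes and cytosol (ENSMUSG00000024953; chr19:6906697-6910106), had 100.3, 119.2 and 136.2 FPKM in WT and 144.9, 145.2 and 143.8 in Mc4r KO. All KO libraries were above all WT libraries, and they differed among themselves by far less (SD 0.762) than the WT libraries did (SD 18.0). The log2 difference was 0.30 (SE 0.12, 95% interval 0.02 to 0.58; limma adjusted p = 0.221). Of its exonic bases, 19.1% (409) are shared with Trmt112 on the opposite strand, so its level is uncertain by the reads of that stretch.

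Txn2, mitochondrial thioredoxin, hands electrons to Prdx3 and Prdx5 (ENSMUSG00000005354; chr15:77915047-77929006). Its FPKM were 37.7, 40.6 and 36.6 in WT and 43.7, 49.9 and 42.0 in Mc4r KO. The KO libraries were again above the WT libraries, with a log2 difference of 0.24 (SE 0.094, 95% interval 0.02 to 0.46; limma adjusted p = 0.217). Txnrd2, the selenoenzyme that reduces Txn2 with NADPH (ENSMUSG00000075704; chr16:18426384-18479073), was at a much lower level, 5.06, 6.15 and 5.88 FPKM in WT and 5.99, 6.12 and 5.18 in Mc4r KO. Its groups had nearly the same mean, and the log2 difference was 0.02 (95% interval -0.26 to 0.29).

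Sod2, the manganese superoxide dismutase of the matrix (ENSMUSG00000006818; chr17:13006846-13040063), had 47.7, 50.5 and 52.3 FPKM in WT and 60.4, 65.7 and 57.4 in Mc4r KO. The groups did not overlap, and the log2 difference of 0.29 (SE 0.085, 95% interval 0.08 to 0.49) had the lowest adjusted p of the 10 genes (limma, 0.133). Of its words of 50 bases, 21% occur in transcripts of 418 other genes. Sod1, the copper-zinc enzyme (ENSMUSG00000022982; chr16:90220754-90226329), had 31.1, 32.9 and 45.9 FPKM in WT and 44.5, 46.7 and 51.5 in Mc4r KO. WT replicate 3 was above the lowest KO library, whereas the other WT libraries lay well below all KO libraries. The log2 difference of Sod1 was the largest of the 10 in size, 0.39 (SE 0.15, 95% interval 0.03 to 0.76; limma adjusted p = 0.213), and 3.42% of its 50-base words also occur in Gm8566.

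Cat, catalase, which breaks down peroxide chiefly in peroxisomes (ENSMUSG00000027187; chr2:103453849-103485160), had 78.1, 88.6 and 80.4 FPKM in WT and 85.7, 94.5 and 122.3 in Mc4r KO. Only KO replicates 2 and 3 exceeded every WT library, and the log2 difference was 0.28 (95% interval -0.05 to 0.61; limma adjusted p = 0.311). Gpx1, the glutathione peroxidase of cytosol and mitochondria (ENSMUSG00000063856; chr9:108338903-108340343), had 47.3, 40.9 and 55.1 FPKM in WT and 44.8, 37.9 and 41.1 in Mc4r KO. Its log2 difference was -0.20 (95% interval -0.50 to 0.09; limma adjusted p = 0.410), and -0.094 without WT replicate 3, its highest library. Gpx1 is abundant in red blood cells, and the libraries with the 3 highest Gpx1 levels (WT replicates 3 and 1, then KO replicate 1) were also the 3 with the highest erythrocyte marker sums; the part of blood in this gene was not tested. Gsr, glutathione reductase (ENSMUSG00000031584; chr8:33652523-33698163), had 7.16, 7.89 and 7.68 FPKM in WT and 6.67, 7.58 and 6.72 in Mc4r KO, with a log2 difference of -0.12 (95% interval -0.34 to 0.11; limma adjusted p = 0.535).

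**Figure D3:**
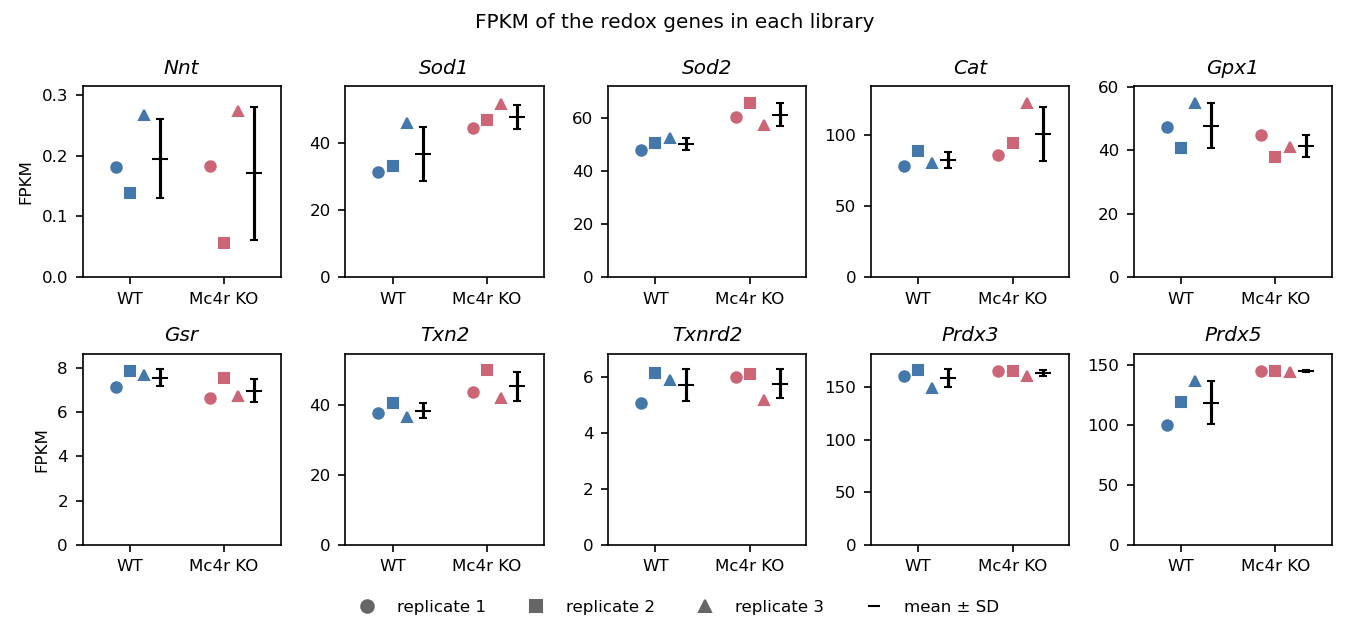
FPKM of each of the 10 redox genes in the 6 libraries, 1 panel per gene with its own linear axis from 0. There is 1 point per library, with the mean ± SD of each group of 3. Prdx3 is at 149.6 to 166.9 FPKM in every library and Nnt at 0.0561 to 0.275, and the KO points of Prdx5, Sod2 and Txn2 lie above all their WT points.

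Ordered by FPKM in WT, the levels fell from Prdx3 through Prdx5, Cat, Sod2, Gpx1, Txn2, Sod1, Gsr and Txnrd2 to Nnt. The ranges of Sod2 and Gpx1 overlapped, as did those of Txn2 and Sod1, and the other neighbours were apart. In Mc4r KO the order was Prdx3, Prdx5, Cat, Sod2, Sod1, Txn2, Gpx1, Gsr, Txnrd2 and Nnt, with overlapping ranges of Sod1 and Txn2 and of Txn2 and Gpx1. This order depends on the gene length by which the authors divided. For Sod1 that length was 3970 bases, 6.19 times the 641 bases of its principal transcript, and for Cat and Prdx3 the lengths were equal. Per principal transcript length, the mean level over 6 libraries was 260.8 for Sod1, 223.1 for Prdx5, 161.5 for Prdx3, 95.1 for Sod2, 91.6 for Cat, 85.7 for Txn2, 59.9 for Gpx1, 8.78 for Txnrd2 and 7.5 for Gsr, on the FPKM scale. Sod1 thereby moved from rank 6 to rank 1. Both reductases, Txnrd2 and Gsr, were below all peroxidases and dismutases on either scale.

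None of the 10 genes was called by limma in all 6 libraries, beside 0.316% of all tested genes called higher and 0.144% called lower. None was called under any of 21 alternative settings either. With a mean FPKM of at least 1, 9 of the 10 were tested, without Nnt. At an unadjusted p under 0.05, 4 of 10 were higher in Mc4r KO (Sod1, Sod2, Txn2 and Prdx5) and 0 lower, against 12% of all genes higher and 8.83% lower. Groups did not overlap for 3 of 10 with KO above WT (Sod2, Txn2 and Prdx5) and for 0 of 10 with KO below, against 14.1% and 12.4% of all genes, or 26.4% in either direction. Log2 differences were above 0 for 7 of 10, against 48.8% of all genes. The median of the 10 was 0.14, and that of all genes tested was -0.011. For Nnt, Prdx3, Txnrd2, Gsr, Gpx1 and Cat the intervals included 0, and those of Prdx3, Txnrd2 and Gsr left room for log2 differences of at most 0.34 in either direction on the deposited scale. Scaled outside the mitochondrial chromosome, these intervals were -0.42 to 0.12 for Prdx3, -0.48 to 0.13 for Txnrd2 and -0.56 to -0.06 for Gsr. That scaling moved the median of all genes by -0.18.

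**Figure D4:**
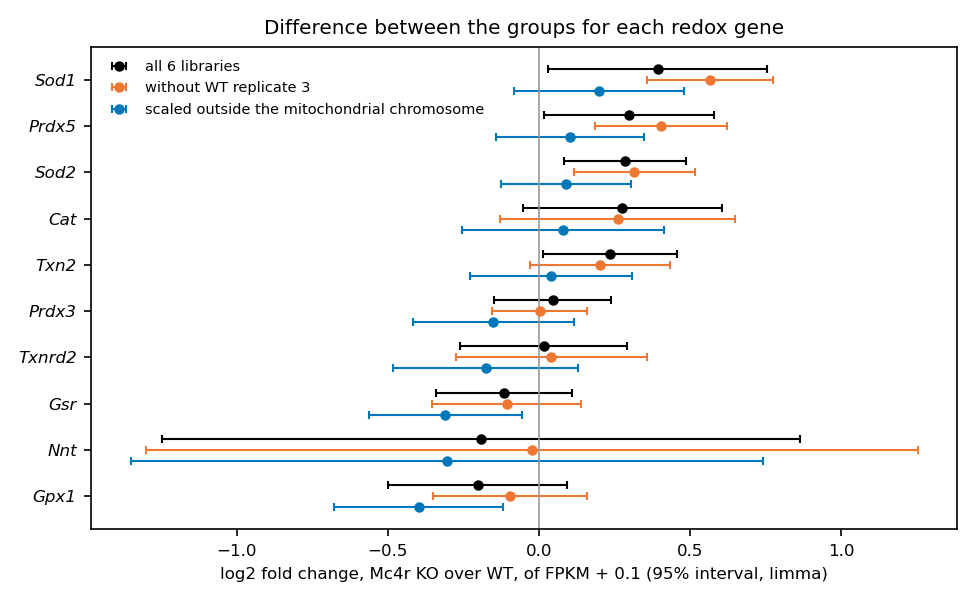
Log2 fold change of FPKM + 0.1, Mc4r KO over WT, for each of the 10 redox genes, with 95% intervals from limma, for all 6 libraries, without WT replicate 3 and after scaling outside the mitochondrial chromosome. Sod1 moves from 0.39 to 0.57 without WT replicate 3 and to 0.20 with the other scaling, and the interval of Nnt is the widest.

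The size of these differences changed with the libraries and the scaling used. Without WT replicate 3, the log2 difference of Sod1 was 0.57 (limma adjusted p = 0.0180) and that of Prdx5 was 0.40 (0.0434), both under the fold required for a call, and over all genes 726 were called in place of 83. When FPKM were scaled on genes outside the mitochondrial chromosome, the median of all genes shifted by -0.18 and the log2 differences were 0.20 for Sod1, 0.10 for Prdx5, 0.09 for Sod2, 0.08 for Cat and 0.04 for Txn2. Under that scaling 0 of 10 were higher and 2 of 10 lower at an unadjusted p under 0.05, namely Gpx1 (-0.40) and Gsr (-0.31), against 4.95% and 18.1% of all genes in the same fit, so 2 of 10 is near the background. Prdx3 and Txnrd2 turned to -0.15 and -0.18. With the mitochondrial share as a covariate, Sod1 stood at -0.056. The parts of the mitochondrial share, the atrial signal and the cardiomyocyte sum in these differences were not tested.

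Genes that support or neighbour the 10 were read from 6 redox lists of 81 genes, all of them tested. Xdh alone was called (1 of 81, higher), beside 0.46% of all genes tested. At an unadjusted p under 0.05, 19 of 81 were higher and 6 lower in Mc4r KO, against 12% and 8.83% of all genes, and 56 passed in neither direction. Groups did not overlap for 20 above WT and 10 below, against 14.1% and 12.4% of all genes, so the lower counts are near the background. Their median log2 difference was 0.060. Scaled outside the mitochondrial chromosome, 5 were higher and 19 lower, against 4.95% and 18.1% of all genes, with 0 called and a median of -0.13. All 81 values come from the same 6 libraries as the 10 genes, with the same difference in mitochondrial share.

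Xdh encodes xanthine dehydrogenase, a source of superoxide and uric acid in its oxidase form (ENSMUSG00000024066; chr17:73883895-73950196). It had 16.7, 16.5 and 13.5 FPKM in WT and 32.1, 24.8 and 31.3 in Mc4r KO, every KO library above every WT library. It rose by a log2 fold change of 0.91 (SE 0.13, 95% interval 0.60 to 1.23; limma adjusted p = 0.0462), from 15.6 ± 1.79 to 29.4 ± 4.0 FPKM (SD). The call held under 8 of 21 alternatives. Leaving out WT replicate 1 or 2 or any KO library gave adjusted p-values of 0.110 to 0.162, with log2 fold changes of 0.85 to 1.03, and scaling outside the mitochondrial chromosome gave 0.72 (adjusted p = 0.0982). The list of Xdh, superoxide handling and sources (13 genes, median 0.071), had 4 higher and 0 lower at an unadjusted p under 0.05, against 12% and 8.83% of all genes. Scaled outside the mitochondrial chromosome, 2 were higher and 1 lower, against 4.95% and 18.1%, and the median was -0.12. Cybb, the NADPH oxidase subunit of phagocytes, had the lowest value of this list on the deposited scale, -0.43 (limma adjusted p = 0.398). Without WT replicate 3 the 6 lists held 4 called genes of 81, beside 4.04% of all genes called in that fit, a share near the background. They were named after their values were seen: Xdh (0.81), Romo1 (1.25), Glrx5 (0.80) and Sod3 (0.80).

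NADPH supply (12 genes) held isocitrate dehydrogenases, malic enzymes, the pentose phosphate path, folate enzymes, Nadk, Nadk2 and Glud1. This list had 0 called, 1 higher and 2 lower at an unadjusted p under 0.05, against 12% and 8.83% of all genes, and a median of -0.0089. Its extremes were Pgd, of the pentose phosphate path, at 0.48 (limma adjusted p = 0.121), and Aldh1l2, which makes NADPH from formyl-tetrahydrofolate in mitochondria, at -0.52 (0.223). Glutathione synthesis and use (20 genes) had 0 called, 4 higher and 1 lower, against 12% and 8.83% of all genes, and a median of 0.15. Without WT replicate 3, 9 were higher and 1 lower, against 15.6% and 12.6% of all genes in that fit. There NADPH supply had 1 higher and 1 lower, and the 6 redox lists together had 26 higher and 10 lower of 81. Glrx5, the mitochondrial glutaredoxin of iron-sulphur cluster assembly, stood at 0.60 (limma adjusted p = 0.118) and Gpx7, of the endoplasmic reticulum, at -0.27 (0.347). Scaled outside the mitochondrial chromosome, NADPH supply had 1 higher and 5 lower, with a median of -0.20. Glutathione synthesis and use then had 1 higher and 4 lower, with a median of -0.044. The shares of all genes in that fit were 4.95% and 18.1%. Pgd was there at 0.28, Glrx5 at 0.41 and Gpx7 at -0.46.

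Among other thioredoxins and peroxiredoxins (15 genes), 0 were called, 7 were higher and 1 lower at an unadjusted p under 0.05, against 12% and 8.83% of all genes, and the median was 0.13. Scaled outside the mitochondrial chromosome, 1 was higher and 3 were lower, against 4.95% and 18.1%, and the median was -0.062. Prdx6, the peroxiredoxin that also acts on phospholipid peroxides, had 29.0, 31.0 and 31.3 FPKM in WT and 38.5, 46.2 and 43.8 in Mc4r KO. These groups were well apart, with a log2 difference of 0.49 (SE 0.093; limma adjusted p = 0.0666), and 0.29 with that scaling. Prdx4, the peroxiredoxin of the secretory path, had 6.57, 6.08 and 6.19 FPKM in WT and 4.93, 5.0 and 4.32 in Mc4r KO, a log2 difference of -0.40 (SE 0.10; limma adjusted p = 0.104), also without overlap. The peroxiredoxins outside the 10 thus included values on both sides of 0.

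The NRF2 axis (8 genes), which drives many antioxidant genes, had 0 called and a median of -0.016. The list holds genes that act for and against NRF2, so its median and counts give no direction for the axis. At an unadjusted p under 0.05, 3 were higher and 1 lower, against 12% and 8.83% of all genes. Scaled outside the mitochondrial chromosome, 0 were higher and 3 lower, against 4.95% and 18.1%, and the median was -0.21. Nfe2l2, which encodes NRF2 itself, had 22.6, 23.0 and 19.4 FPKM in WT and 15.7, 16.1 and 15.6 in Mc4r KO, with a log2 difference of -0.45 (SE 0.092; limma adjusted p = 0.0766). Keap1, the adaptor by which NRF2 is degraded, had 7.31, 7.46 and 11.6 FPKM in WT and 12.2, 11.5 and 13.5 in Mc4r KO, with a log2 difference of 0.52 (SE 0.18; limma adjusted p = 0.179), and WT replicate 3 lay among the KO libraries. Without that library Keap1 was at 0.74 (limma adjusted p = 0.0135, under the fold for a call). It was at 0.33 scaled outside the mitochondrial chromosome and at -0.055 with the mitochondrial share as a covariate. In all libraries the rest of the list stood at 0.38 for Mafg, 0.35 for Nfe2l1, 0.064 for Nqo1, -0.097 for Hmox1, -0.16 for Cul3 and -0.22 for Bach1.

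Selenoproteins and the selenocysteine machinery, on which Gpx1 and Txnrd2 depend, had 0 of 13 called and a median of -0.045. At an unadjusted p under 0.05, 0 were higher and 1 lower, against 12% and 8.83% of all genes. Scaled outside the mitochondrial chromosome, 0 were higher and 3 lower, against 4.95% and 18.1%, and the median was -0.24. Selenop, the plasma carrier of selenium, had 120.4, 108.7 and 113.6 FPKM in WT and 89.7, 76.3 and 77.3 in Mc4r KO. All KO libraries were below all WT libraries, and the log2 difference was -0.50 (SE 0.095; limma adjusted p = 0.0696), with 15.4% of its exonic bases shared with Ccdc152 on the opposite strand. Trnau1ap was at the other end, at 0.18 (limma adjusted p = 0.334) and at -0.013 when scaled outside the mitochondrial chromosome.

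Nuclear genes of mitochondrial content (12 genes) had 0 called and a median of 0.13, close to the 0.14 of the 10 redox genes. At an unadjusted p under 0.05, 2 were higher and 0 lower, against 12% and 8.83% of all genes. Scaled outside the mitochondrial chromosome, 0 were higher and 0 lower, against 4.95% and 18.1%, and the median was -0.062. Slc25a4, the heart isoform of the adenine nucleotide carrier, had 1102, 1252 and 1685 FPKM in WT and 1764, 2068 and 1906 in Mc4r KO, a log2 difference of 0.53 (limma adjusted p = 0.177). Slc25a4 was at 0.70 without WT replicate 3 (adjusted p = 0.0219), at 0.33 scaled outside the mitochondrial chromosome and at 0.12 with the mitochondrial share as a covariate. Ndufs1, a subunit of complex I, was at -0.015 (limma adjusted p = 0.932).

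**Figure D5:**
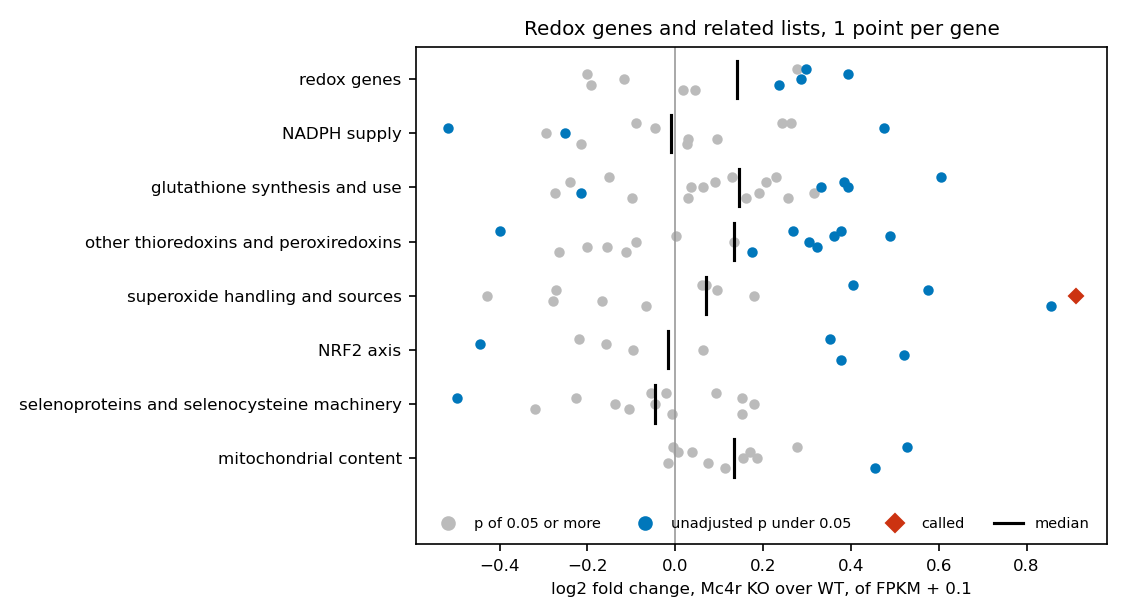
Log2 fold change of FPKM + 0.1, Mc4r KO over WT, for the 10 redox genes and 7 related gene lists, 1 point per gene, with a vertical bar at each list's median. Medians lie between -0.045 and 0.15, and Xdh at 0.91 is the called gene.

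The genes whose profile over the 6 libraries was most like that of Nnt were found by the root mean square difference of centred log2(FPKM + 0.1) among 10220 protein-coding genes whose mean FPKM was 1 or more. They were Gnmt (0.169), Klhl38 (0.183), 2310030G06Rik (0.189), Miip (0.189) and Eef2k (0.197). All 5 had their lowest level in KO replicate 2, the library with 6 Nnt reads. Nnt itself was lowest in that library. The genes were picked for their likeness to Nnt, so the shared minimum follows from the selection and is no separate result. With 6 to 32 reads per library, the profile of Nnt itself carries large counting error.

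Promoter sequence of the 10 genes was searched for the core of the antioxidant response element bound by NRF2 (TGACNNNGC, both strands). RefSeq promoters of GRCm38.p6, from 250 bases before to 50 after the start, were matched for 8 of the 10 genes, all but Nnt and Gsr. The antioxidant core was in 1 of 8, Sod1, beside 12.4% of all 32851 promoters of this length, so 1 of 8 is near the background. A second motif searched, that of NRF1, was in 0 of 8, beside 4.6% of all promoters. The 120 bases before the Sod1 start are shown because Sod1 alone of the 8 had a match to the antioxidant core. They are from chr16:90220642-90220761, plus strand, with the match, 56 bases before the start and on the reverse strand, in capitals.
Sod1 promoter: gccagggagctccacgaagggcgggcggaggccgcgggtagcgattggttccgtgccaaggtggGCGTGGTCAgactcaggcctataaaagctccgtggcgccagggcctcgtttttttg
The match is a description of the letters, and binding of a factor there was not measured.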

How the data were processed

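The authors aligned reads with HISAT2 (version 2.0.5, with mm10 and CASAVA also named in the submitters' processing notes), counted them on genes and deposited FPKM per gene and library. Neither the annotation release nor the strand setting of the counting is given in the sources used here. FPKM times length gave whole reads for 100% of values (tolerance 0.05). Because FPKM are not counts, the test was limma 3.58.1 (R 4.3.3) on log2(FPKM + 0.1) in place of the authors' count test, with the empirical Bayes trend, for the 18035 genes whose mean FPKM reached 0.1, two-sided, with Benjamini-Hochberg adjustment over all of them. A fit on simulated data with known changes was run first. It called 59% of genes with a log2 change of 1 in size and 97% of those with 2, with 13 false calls. The simulation had a fixed spread and no group difference in mitochondrial share, so it does not give the power in these data. A gene was called where its adjusted p was under 0.05 and its log2 fold change exceeded 0.75 in size. Models and lengths were taken from GENCODE M21, which holds 99.9% of the identifiers, and its exonic length equals the deposited one for 98.0% of these.

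The 10 genes, the lists and the markers were chosen with earlier results of these data known. Genes named beside the 10 were Mc4r, every called gene of a list, each list's highest and lowest log2 difference at a mean FPKM of at least 1, the substrain list and the 5 profiles closest to Nnt. The rest of the NRF2 axis was named outside this rule. Alternatives were pseudocounts, filters, scalings, limma variants, voom on recovered reads, a replicate block, the mitochondrial share as covariate, each library left out and, chosen after seeing the data, removal of a GC content trend. The main fit scaled libraries by the median ratio to each gene's geometric mean. The alternative with FPKM as deposited repeated it, with 83 calls in each, and adds no separate check. The floor of 3 reads covers counting error only.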

Additional observations from a re-analysis of the deposited data

How the results depend on the processing

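Over 26 named genes and 21 alternatives, 511 of 545 values kept direction and side of the threshold. Of the rest, 14 lost and 2 gained the threshold, and 18 reversed. Scaling outside the mitochondrial chromosome divides each library by 1 factor, so expressed genes move by nearly the same amount (median of all genes -0.18). The cause of the other reversals was not tested. Of the 10 redox genes, 6 kept their direction under every alternative, the exceptions being Nnt, Sod1, Txnrd2 and Prdx3. Reversed log2 differences were, with quantile normalization, Txnrd2 -0.027 and Prdx3 -0.15; scaled outside the mitochondrial chromosome, Txnrd2 -0.18, Prdx3 -0.15 and Trnau1ap -0.013; with array weights, Txnrd2 -0.0026; with the mitochondrial share as covariate, Sod1 -0.056, Txnrd2 -0.037, Keap1 -0.055 and Ndufs1 0.041; and with the GC trend removed, Txnrd2 -0.14 and Ndufs1 0.058. Leaving out 1 library gave Nnt -0.47 to 0.16, Txnrd2 -0.067 to 0.091 and Ndufs1 -0.031 to 0.011. Nnt was not tested with a mean FPKM of at least 1.

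The number of redox genes higher at an unadjusted p under 0.05 (4) became 0 with quantile normalization, 0 scaled outside the mitochondrial chromosome, 1 without trend, 1 with the mitochondrial covariate, 2 with the GC trend removed and 1 to 3 without 1 library. The number lower (0) became 1, 2, 1 and 1 with quantile normalization, the outside scaling, the covariate and the GC trend removed, and 0 to 1 without 1 library. The 1 call in the redox lists became 0 with a pseudocount of 1, no filter, quantile normalization, the outside scaling, no trend, the replicate block, the covariate and the GC trend removed, and 0 to 4 without 1 library.

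Over all genes the 83 calls became 44 with a pseudocount of 1, 22 with no filter, 147 with a mean FPKM of at least 1, 49 with quantile normalization, 41 scaled outside the mitochondrial chromosome (16 higher and 25 lower, against 57 and 26), 21 without trend, 435 with array weights, 2 with the covariate, 314 with voom, 204 for protein-coding genes, 726 without WT replicate 3 and 7 to 14 without any 1 other library. WT and KO libraries of the same number shared only a number (correlations of deviations -0.14, 0.0074 and -0.082 over 11297 genes); with the replicate block 11 genes were called, 0 of the 10 redox genes, and 3 of the 10 were higher at an unadjusted p under 0.05, with Nnt at -0.19. The value of Nnt rests on 6 to 32 reads per library.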
